A study of Canis lupus familiaris with 6 samples.

Results

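The genes described here are BMP4, TGFB1, ID3 and CDKN2B, 4 genes of transforming growth factor beta (TGF-beta) and bone morphogenetic protein (BMP) signalling. They were listed by name, and a probe was taken as theirs when its accession was a dog RefSeq transcript of the gene. BMP4, ID3 and CDKN2B each had 1 probe, so 3 of the 4 genes, of 1436 named genes on the array, have values. TGFB1 has an entry in the gene table and 0 matched probes, and its level was not analysed here. Probes whose accession that table does not list stayed unnamed, so the 0 describes the naming and not the array, which may hold TGFB1 probes. Each gene therefore rests on a single probe, and no other probe of the same transcript checks it.

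The cells were MDCK-II, an epithelial line from dog kidney tubule, carrying a short hairpin RNA against scribble that tetracycline (Tet) switches on. Scribble is a scaffold protein of basolateral cell polarity. Its gene, SCRIB, had 0 matched probes, so the knockdown was not checked in these arrays, and the arms are named by the drug. In the arm with Tet the drug was given at 5 µg/ml from 6 h after plating, and RNA was taken 30, 45 and 60 h later. The arm without Tet carried the same hairpin construct and was taken at the same times. Each of the 6 one-colour arrays, 3 per arm, held RNA mixed from 3 wells, so an arm has 1 array per time and no condition has a replicate array. Cells of another construct treated with Tet were not analysed here, so the drug and the hairpin cannot be told apart.

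BMP ligands and TGF-beta ligands are secreted dimers that bring together type I and type II receptor kinases on the cell surface. BMP receptors phosphorylate SMAD1, SMAD5 and SMAD9, which switch on the ID genes, while TGF-beta receptors act mainly through SMAD2 and SMAD3. BMP4 is a BMP ligand with roles in kidney development. TGFB1 is the TGF-beta ligand best known for growth arrest and matrix production in epithelia. ID3 is a helix-loop-helix protein without a DNA-binding region that holds back basic helix-loop-helix transcription factors, and it is a common readout of BMP signalling. CDKN2B encodes p15, an inhibitor of the cyclin D kinases CDK4 and CDK6, and is a TGF-beta target in epithelial cells.

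On each array 64.3% to 68.8% of the spots passed the program's flag for signal well above background and 0 were saturated, and the 6 profiles correlated at 0.986 to 0.991. The 30 h pair lay on slide 1 and the 60 h pair on slide 2. At 45 h the array with Tet was on slide 2 and the array without Tet on slide 1. Of 12 listed epithelial markers 6 had a probe (CDH1, KRT19, CLDN2, OCLN, TJP1 and CGN), and all 6 arrays had each of them well above background. Their median arm difference (log2, with minus without Tet) was -0.26, against 0.01 over all features tested. KRT19, CGN and TJP1, a keratin and 2 tight junction proteins, were lower at all 3 times, as were 21.8% of all features. Their means were -0.25, -0.26 and -0.26 (limma adjusted p = 0.176, 0.159 and 0.171), but the other TJP1 probe had a mean of 0.03. OCLN was higher at all 3 times, with a mean of 0.13, and CDH1 had differences of -0.015, 0.06 and 0.51. CLDN2, a claudin of leaky tubule epithelia, had differences of 0.06, -0.38 and -1.64. The part of these markers in the results below was not tested. Of 8 fibroblast markers 5 had a probe. The matrix proteoglycan gene DCN was not well above background on any array, whereas COL1A1, COL1A2, PDGFRB and THY1 were on all 6, with a median arm difference of 0.04. Of 4 endothelial markers VWF and KDR had a probe and were detected on every array, and 0 of 4 leukocyte markers had one. Markers of several cell types were thus detected, and detection alone does not identify the labelled line.

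Levels below are the log2 processed signal less the 75th percentile of its array, so that 0 is the level of a probe brighter than 75% of all probes. Differences are with minus without Tet. All 6 arrays had the 3 probes well above background, at between 37.2 and 737 times the lowest signal counted as such on the same array. The scanning program gives each of these spots an error of 10.0% of its signal, which is 0.20 on the log2 scale for the difference of 2 arrays. That error covers the spot and not the culture.

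BMP4, the ligand, was lower with Tet at every time. Its processed signal was 1988, 1193 and 1286 at 30, 45 and 60 h with Tet, against 3091, 2760 and 2133 without Tet. The 3 arrays with Tet were all below the 3 without, and the arms did not overlap. In RNA of whole wells, fewer cells that express a gene and less of its RNA per cell cannot be told apart. On the log2 scale BMP4 averaged 1.25 ± 0.36 with Tet and 2.10 ± 0.22 without Tet (SD over the 3 times). BMP4 was thus lower by factors of 1.55, 2.33 and 1.64 at the successive times. The order of its levels, from the highest, was 30, 45 and 60 h without Tet and then 30, 60 and 45 h with Tet. The 45 and 60 h levels with Tet lay 0.20 apart and the 30 and 45 h levels without Tet 0.11 apart, neither beyond the program's error, and the highest level with Tet (1.65) and the lowest without Tet (1.86) differed by little more than it.

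The mean difference of BMP4 was -0.85 ± 0.14 (moderated SE, 3 pairs of arrays), or 1.81-fold lower. Every SE given here is limma's, moderated toward the spread of all tested features, and not the SE of the gene's own pairs alone. The differences of BMP4 at the 3 times had an SD of 0.32. The 2 pairs that share a slide gave -0.63 at 30 h and -0.71 at 60 h, and the pair that spans both slides gave the largest value, -1.22 at 45 h. With limma and Benjamini-Hochberg adjustment over all 27580 features tested, the adjusted p of BMP4 was 0.115, above the threshold of 0.05, and the unadjusted p was 0.00274. These p-values rest on the spread of the difference over the 3 times, moderated as above, and not on the spread between cultures. Among 998 named genes tested, BMP4 had the 26th lowest mean difference, ID3 the 46th and CDKN2B the 57th.

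ID3, the BMP readout, was also lower with Tet at every time, by a wider margin at later times. Its processed signal was 609.3, 561.7 and 428.0 at 30, 45 and 60 h with Tet, against 724.7, 880.9 and 910.7 without Tet. The arms did not overlap, and the highest array with Tet (-0.06, at 30 h) and the lowest without Tet (0.19, at 30 h) were those of the earliest time. ID3 averaged -0.21 ± 0.20 with Tet and 0.45 ± 0.23 without Tet (log2 level, SD over the 3 times). At 30 h it was 1.18-fold lower, little more than the program's error, and at 45 and 60 h it was lower by factors of 1.58 and 2.10.

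The levels of ID3 went opposite ways over time in the 2 arms. From 30 to 60 h the change was -0.38 with Tet and 0.45 without Tet, each from 1 array per time and without a test. The mean difference, of 3 values with an SD of 0.41, was -0.66 ± 0.17 (moderated SE), with a limma adjusted p of 0.155 and unadjusted p of 0.0164. The difference moved by -0.41 ± 0.07 per 15 h (SE; limma adjusted p for the slope = 0.129, unadjusted p = 0.00461). Within slides the difference of ID3 was -0.24 at 30 h and -1.07 at 60 h.

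CDKN2B, the cell cycle inhibitor, did not differ between the arms at 30 h beyond the program's error and had the largest difference of the 3 genes at 60 h. Its processed signal was 2348, 1741 and 1409 at 30, 45 and 60 h with Tet, against 2184, 2326 and 3939 without Tet. The arms overlapped, since the 30 h array with Tet (1.89) was above the 30 h array without Tet (1.78). CDKN2B averaged 1.55 ± 0.31 with Tet and 2.15 ± 0.52 without Tet (log2 level, SD over the 3 times). It was 1.08-fold higher at 30 h, and at 45 and 60 h it was lower by factors of 1.34 and 2.76.

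The 60 h array without Tet carried the highest level of CDKN2B. The 60 h minus 45 h value was -0.21 with Tet, where both arrays lie on slide 2, and 0.82 without Tet, where the 2 arrays lie on different slides. The mean difference, of 3 values with an SD of 0.80, was -0.59 ± 0.32 (moderated SE), with a limma adjusted p of 0.331 and unadjusted p of 0.130. It was -0.16 without the 60 h pair and -0.95 without the 30 h pair, so its size depends on the times taken. The difference moved by -0.79 ± 0.10 per 15 h (SE; limma adjusted p for the slope = 0.114, unadjusted p = 0.00188), the 16th lowest slope among 998 named genes. In the same ranking ID3 had the 49th lowest slope and BMP4 the 380th. Within slides the difference of CDKN2B was 0.11 at 30 h and -1.46 at 60 h.

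**Figure D1:**
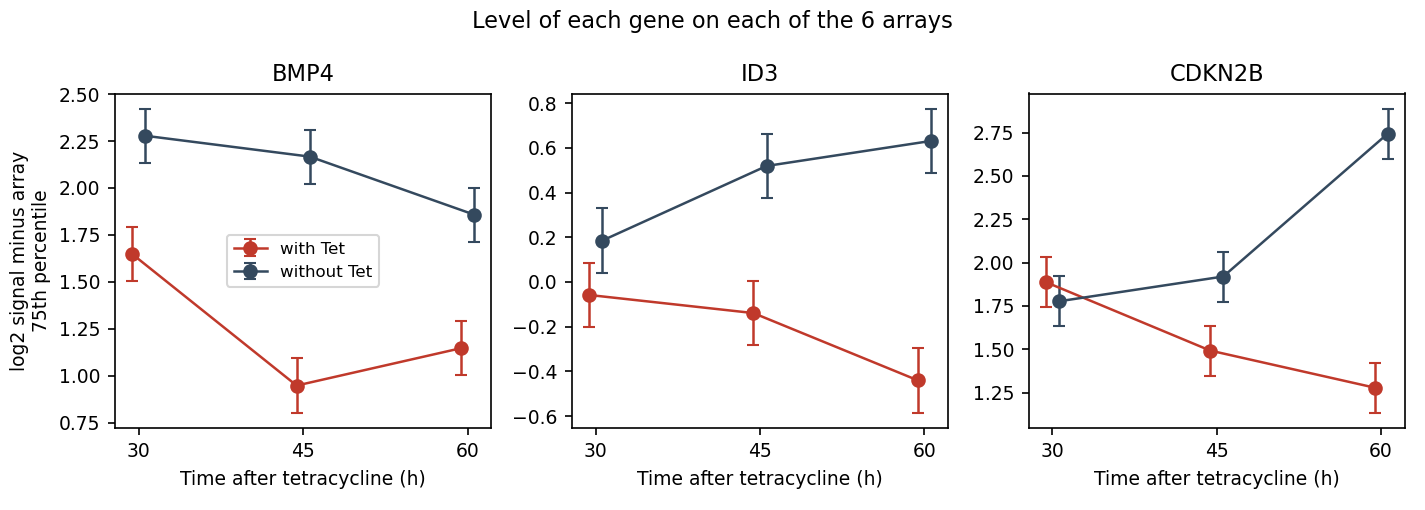
Levels of BMP4, ID3 and CDKN2B on each array, as log2 signal minus the array's 75th percentile (y axis) against hours after tetracycline (x axis), with Tet in red and without Tet in dark blue; bars are the scanning program's error. BMP4 and ID3 are lower with Tet at each time, and CDKN2B separates from 45 h on, to 1.28 with Tet and 2.74 without Tet at 60 h.

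The largest differences of the 3 genes did not all fall at the same time, each time resting on 1 array per arm. That of BMP4 was at 45 h, in the pair that spans both slides, so time and slide cannot be told apart there. Its slope was -0.04 ± 0.18 per 15 h (SE, limma adjusted p = 0.926). ID3 and CDKN2B had their largest differences at 60 h. No test compared the slopes of the genes with each other. In pairs over the 6 arrays, levels correlated at r = 0.86 for ID3 and CDKN2B, 0.74 for BMP4 and ID3, and 0.53 for BMP4 and CDKN2B. These r values are descriptions, since the 6 arrays share 2 arms and 3 times.

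**Figure D2:**
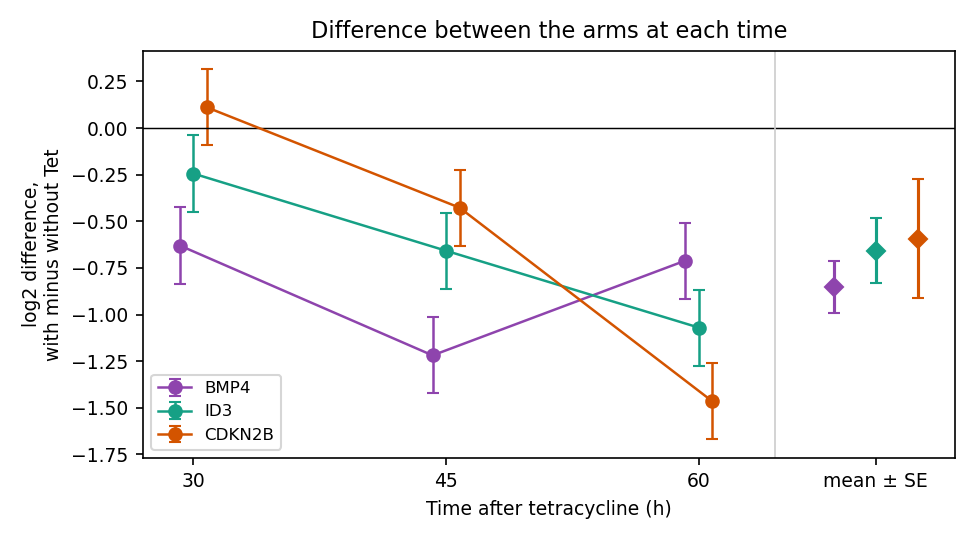
Difference between the arms (log2, with minus without Tet, y axis) at 30, 45 and 60 h (x axis), with the program's error as bars, and at the right the mean over the 3 times with its SE as diamonds. ID3 and CDKN2B move downward with time to -1.07 and -1.46, and BMP4 is lowest at 45 h, at -1.22.

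None of the 3 genes passed an adjusted p of 0.05 for the difference between the arms, where 0% of all features did. At an unadjusted p under 0.05 stood 2 of the 3, BMP4 and ID3, both lower, where 11.1% of the features stood there as lower and 23.3% in either direction. These 2 genes were also lower at all 3 times, as were 21.8% of all features. Their arms did not overlap, and 10.4% of all features had such arms with the lower one with Tet. For the slope, 0 of the 3 genes passed an adjusted p of 0.05, again against 0% of all features. ID3 and CDKN2B had a downward slope at an unadjusted p under 0.05, against 10.7% of the features.

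At 30 h none of the 3 genes was lower by at least 2-fold, against 0.66% of the features. At 45 h BMP4 was, against 1.35%, and at 60 h ID3 and CDKN2B were, against 2.81%. Seen the other way, 0.783% of the features were lower by as much as BMP4 at 45 h. The shares were 2.41% for ID3 and 1.13% for CDKN2B at 60 h. These are the times of each gene's largest difference, where the 3 genes lay in the lower tail of the features, and not at its end. At the other times the shares were larger. They were 1.9% at 30 h and 5.64% at 60 h for BMP4, and 11.4% at 30 h and 3.58% at 45 h for ID3. For CDKN2B they were 7.93% at 45 h and 71.0% at 30 h, where it was not lower.

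**Figure D3:**
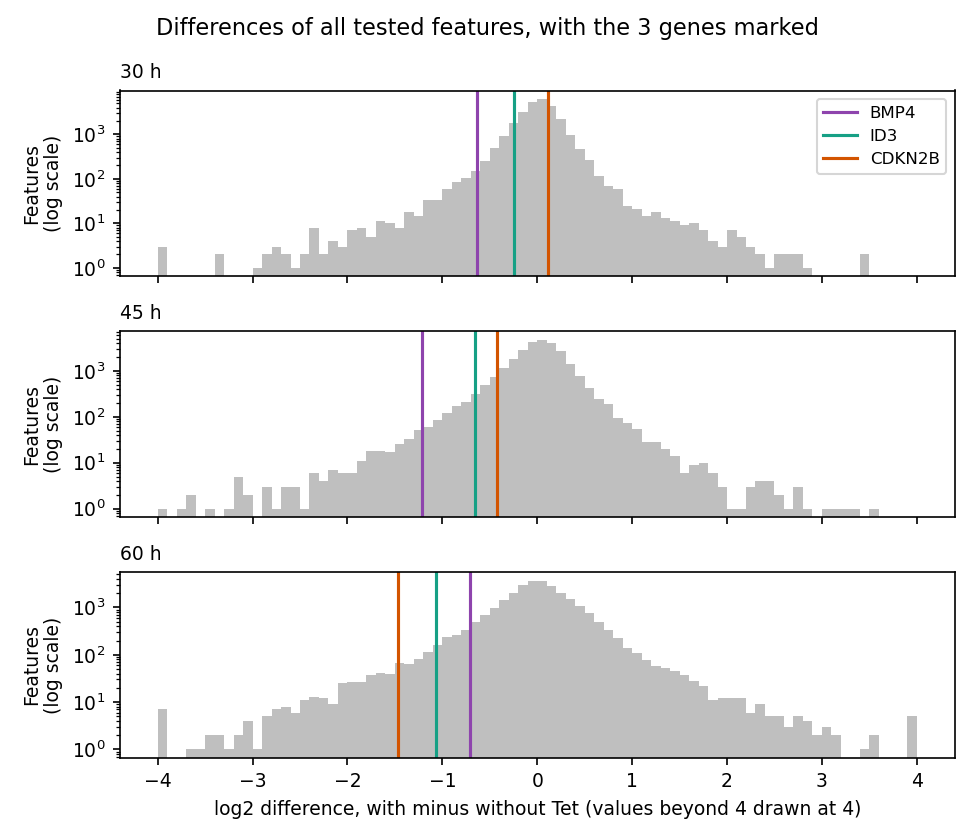
Number of tested features (y axis, log scale) by their log2 difference with minus without Tet (x axis, in steps of 0.1) at 30, 45 and 60 h, with vertical lines at BMP4, ID3 and CDKN2B. The spread of all features widens with time, and the lines of ID3 and CDKN2B lie further to the left at 60 h than at 30 h.

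Time in culture, taken as 60 h against 30 h over both arms, moved none of the 3 genes past an adjusted p of 0.05, whereas 8.17% of all features passed. BMP4 had -0.46 ± 0.17 (SE; limma adjusted p = 0.159), with -0.50 in the arm with Tet and -0.42 in the arm without Tet. ID3 stood at 0.03 ± 0.21 and CDKN2B at 0.18 ± 0.39 (limma adjusted p = 0.934 and 0.785). These means join arms that moved in opposite directions, since CDKN2B had -0.61 with Tet and 0.97 without Tet. All 30 h arrays lie on slide 1 and all 60 h arrays on slide 2, and only the 45 h arrays are split between the slides. With the slide as a further term (1 residual degree of freedom), 0 features passed an adjusted p of 0.05 for time by limma and 1285 had an unadjusted p under 0.05. The value of BMP4 then turned to 0.088, that of CDKN2B to -0.070, and that of ID3 stayed at 0.03. Within slide 2, the 60 h minus 45 h value with Tet was 0.20 for BMP4 and -0.30 for ID3. Within slide 1, the 45 h minus 30 h value without Tet was -0.11 for BMP4, 0.33 for ID3 and 0.14 for CDKN2B.

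The rest of the pathway was covered thinly. Of 147 listed genes of TGF-beta and BMP signalling, their targets and the partners of ID3 and CDKN2B, 28 had a named probe and 21 of these were tested. None of the 21 passed an adjusted p of 0.05. Of the 18 other than BMP4, ID3 and CDKN2B, 7 were higher and 4 lower at all 3 times, where 27.7% and 21.8% of all features were. At an unadjusted p under 0.05 stood 4 of the 18 as higher and 2 as lower, where 12.2% and 11.1% of all features stood. Their median difference was 0.05, against 0.01 over all features.

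Among the ligands, BMP7, a relative of BMP4 made by kidney tubule cells, did not follow it. Its brightest probe had a processed signal of 2077, 1700 and 1461 with Tet, against 2497, 1890 and 1315 without Tet. The differences of BMP7 were -0.26, -0.16 and 0.17, with a mean of -0.08 ± 0.11 (SE; limma adjusted p = 0.685). All 3 of its probes had a mean difference between -0.08 and -0.03. AMH, anti-Muellerian hormone, a distant member of the family, was higher at each time, with differences of 1.43, 0.51 and 0.48 (limma adjusted p = 0.159). It was dim, at a processed signal of 51.1, 30.2 and 28.8 with Tet and 19.0, 21.1 and 20.9 without Tet, and its mean of 0.81 became 0.26 with normexp background correction. The activin-type ligands GDF9 and MSTN, of 13 listed TGF-beta and activin ligands the 2 with a probe, were not tested. GDF9 was not well above background on any array, and MSTN was on 1.

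Both measured receptors are type I receptors of BMP ligands, and both were higher with Tet at each time, as were 27.7% of all features. BMPR1B had a processed signal of 300.5, 298.4 and 238.3 with Tet, against 280.1, 236.6 and 187.1 without Tet, and differences of 0.11, 0.33 and 0.37. Its mean difference was 0.27 ± 0.08 (SE; limma adjusted p = 0.180). BMPR1A was dimmer, with differences of 0.06, 0.25 and 0.59 and a mean of 0.30 ± 0.12 (SE; limma adjusted p = 0.239), which became 0.11 with normexp correction, where the 30 h difference changed sign. None of 18 SMADs and their regulators had a named probe. Of 25 genes of latency, activation and antagonism 3 had a probe. BGN, the matrix proteoglycan biglycan, which can bind TGF-beta, was the 1 tested, at -0.04, -0.82 and -0.29, and its mean of -0.38 became -0.12 with normexp.

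The 9 TGF-beta target genes tested went both ways, with 2 higher and 3 lower at all times, where 27.7% and 21.8% of all features were. Their median difference was -0.02. The sign of 1 of the 3, TIMP1, turned at 45 h with quantile scaling and at 60 h with median scaling. SNAI2, a transcriptional repressor of epithelial genes, had differences of -0.10, 0.99 and 2.60. Its mean of 1.16 (limma adjusted p = 0.277) became 0.795 with normexp, and its 60 h difference 1.79.

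The matrix and cytoskeletal targets split too. COL1A1, a chain of type I collagen, was higher at 0.26, 0.70 and 0.82, on the 1 of its 4 probes well above background on all 6 arrays, while COL1A2, the partner chain, had a mean of 0.01. The mean of COL1A1, 0.59, became 0.33 with normexp. VIM, the intermediate filament vimentin, was lower at -0.15, -0.90 and -0.96, with both probes lower. MMP9, a gelatinase, was lower at -1.38, -3.12 and -2.09, and its mean of -2.20 became -1.24 with normexp. Its 45 h signal with Tet, 14.6, was near the lowest counted as well above background on that array, 10.5. Of its 4 probes 2 were well above background on all 6 arrays, both lower. TIMP1, an inhibitor of matrix proteases, and VEGFA, an angiogenic factor, had means of -0.06 and -0.02.

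ID3 was alone among the BMP targets tested in being lower at all times, where 21.8% of all features were. Of 16 listed, 4 were tested, and their median difference was 0.00. MSX2, a homeobox gene switched on by BMPs, had a mean of 0.07 ± 0.09, and HAMP, the iron hormone hepcidin, 0.02 ± 0.09 (SE; limma adjusted p = 0.667 and 0.905), HAMP standing at -0.01 with normexp. HEY1, a further target, was not well above background on any array. Of 13 genes listed as basic helix-loop-helix partners of ID proteins or as ID family members, TCF4 was the other one with a probe, and it was not well above background on any array.

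On the CDK4 and CDK6 axis that CDKN2B restrains, CCND1 moved opposite to it. CCND1 encodes cyclin D1, the activating partner of both kinases. Its processed signal was 3050, 3388 and 3209 with Tet, against 2872, 2173 and 1061 without Tet, so that the level held with Tet and was lower at each later time without. The 45 and 60 h arrays without Tet lie on different slides. CCND1 was 1.07-, 1.55- and 3.06-fold higher, with a mean difference of 0.78 ± 0.31 (SE; limma adjusted p = 0.231). That difference moved by 0.76 ± 0.095 per 15 h (SE; limma adjusted p for the slope = 0.114, unadjusted p = 0.00172). MYC, which represses CDKN2B transcription in other epithelia, had differences of -0.56, -0.35 and 0.68. CDKN1B, the CDK2 inhibitor p27, had a mean of 0.13. Of the 4 genes tested on this axis 3, CDKN2B itself among them, had a slope at an unadjusted p under 0.05. The share over all features was 19% in either direction. Over the 21 pathway genes the count was 10, and over the 18 other than BMP4, ID3 and CDKN2B it was 8.

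**Figure D4:**
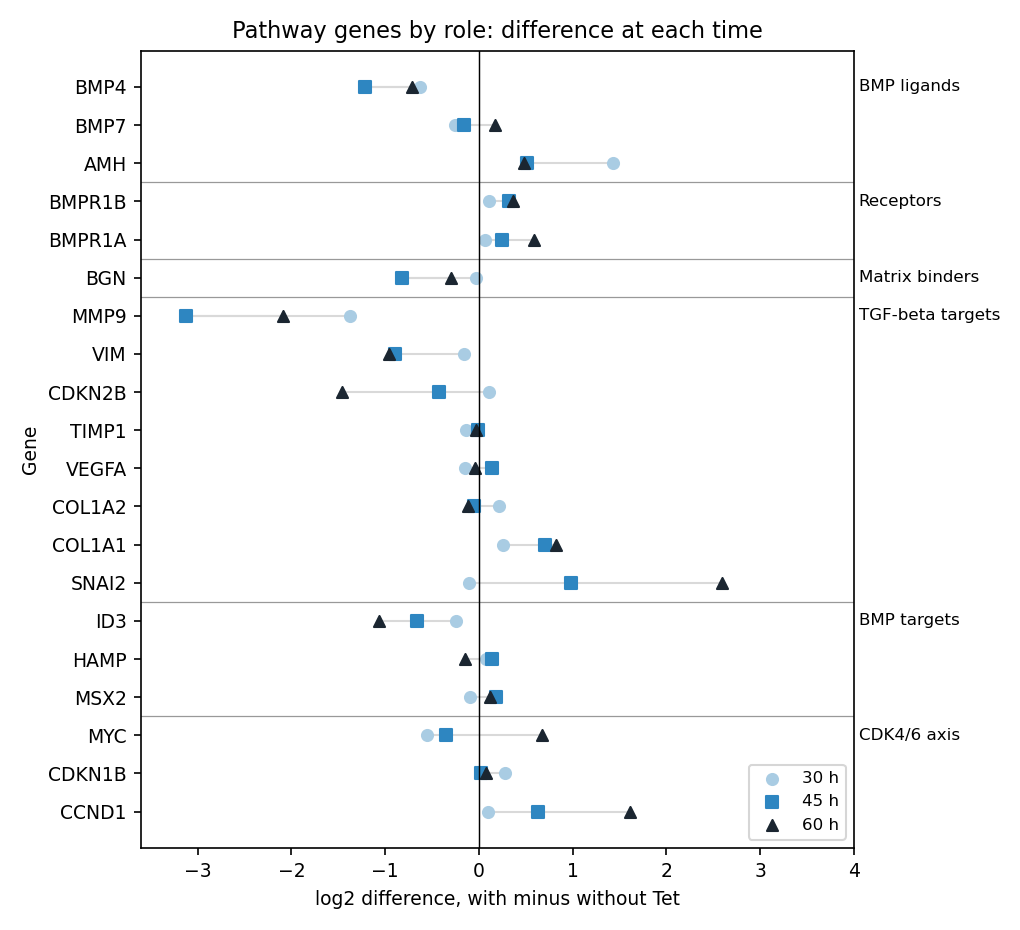
Log2 difference with minus without Tet (x axis) of 20 of the 21 tested pathway genes (y axis, grouped by role) at 30 h (circles), 45 h (squares) and 60 h (triangles). BMP4, ID3 and CDKN2B lie on the lower side at 60 h, and SNAI2 and CCND1 on the higher side, each at 1.61 or more.

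The genes whose levels followed each member most closely over the 6 arrays were looked for among 972 other named genes well above background on all of them. For BMP4 they were SLC9A3R1 (r = 0.99), a scaffold of apical transporters, TES (0.98), a focal adhesion protein, and LMAN2 (0.97), a cargo receptor of the early secretory route. LMAN2 was lower with Tet by -0.54, -0.78 and -0.76, and SLC9A3R1 by -0.21, -0.52 and -0.24. The differences of TES were no larger than -0.14.

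For ID3 they were NPC1L1 (r = 0.98), a sterol transporter, SERPINH1 (0.98), a collagen chaperone, and FGFR2 (0.98), a receptor of fibroblast growth factors. FGFR2 differed by -0.27, -1.11 and -2.37, and NPC1L1 by -0.09, -0.64 and -0.93. For CDKN2B they were ALDH1A1 (r = 0.97), a retinoic acid-forming enzyme, DLA-DRA (0.96), a class II histocompatibility chain of the dog, and SLC35A1 (0.96), which carries CMP-sialic acid into the Golgi. ALDH1A1 differed by -0.12, -0.62 and -1.23 and, as for CDKN2B, its level was highest at 60 h without Tet. Each r is over 6 arrays that share arm and time, and many genes were searched, so the values describe likeness in these arrays.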

How the data were processed

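Cy3-labelled total RNA was measured on 1 dog array per arm and time. The deposited scanner files hold spot intensity from Agilent Feature Extraction 11.5.1.1 (per the file headers, with protocol GE1_1105_Oct12 on build CanFam3.1), background-subtracted and detrended by that program. Flags in the deposited files come from the same program. The deposited series matrix equals this intensity times 1 factor per array, between 2.30 and 2.62. Outlier spots were left out, and 19 of 43603 probes were dropped. Probes were named by accession through a RefSeq table (UU_Cfam_GSD_1.0, another build, so no coordinates were taken); 2352 probes received a name.

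The 27580 features tested had all 3 arrays of 1 arm or of both well above background, with the brightest probe for each gene. Limma 3.58.1 in R 4.3.3 (two-sided, Benjamini-Hochberg) was fitted over all features, with time as a block for the arms (2 residual degrees of freedom) and arm by linear time for the slope (1). The error is the spread over times, not between cultures, moderated by limma toward the spread of all features. The prior had 2.37 degrees of freedom for the arms and 2.76 for the slope. It thus outweighed the gene's own residual in both fits, and by more for the slope. Normexp used median spot signal, offset 50, then quantile scaling. Tests were tested on simulated data. Members, lists and the naming rule (up to 5 tested genes a list by mean difference, 3 most alike genes a member) were chosen with earlier results of these data known. Of the pathway genes that the rule names, 1 is not reported here; it is counted in the totals.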

Additional observations from a re-analysis of the deposited data

Results flagged for a closer look

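The levels of ID3 moved in opposite directions in the 2 arms between 30 and 60 h, by -0.38 with Tet and 0.45 without Tet (log2). CDKN2B did so as well, by -0.61 with Tet and 0.97 without Tet. For CDKN2B the difference between the arms also had opposite signs at 30 h (0.11) and at 60 h (-1.46), but the 30 h value lay within the program's error of 0.20. Each value rests on 1 array per arm and time. The change of the difference with time was tested as a slope, which passed an adjusted p of 0.05 for neither gene (limma, 0.129 for ID3 and 0.114 for CDKN2B); the opposite directions as such were not tested.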

How the results depend on the processing

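The differences between the arms of BMP4, ID3 and CDKN2B kept their sign under all 14 alternatives. They lay between -0.96 and -0.67 for BMP4, -0.86 and -0.45 for ID3 and -0.95 and -0.16 for CDKN2B. Several alternatives could not move these estimates, so the kept sign says nothing there. These were the series matrix values, the detection filters, the probe mean, the trended prior, the fit without a time term and the unadjusted p. BMP4 and ID3 were lower at each time, so leaving out a pair or adding the slide term could not turn their sign either. For these genes only quantile scaling, median scaling and normexp could have turned it. The differences passed an adjusted p of 0.05 under none (limma, 0.0640 to 0.674). By unadjusted p under 0.05, BMP4 (-0.85) and ID3 (-0.66) would pass, with 6421 features. The downward slopes passed with normexp, at -0.35 for ID3 and -0.78 for CDKN2B, and with a trended and robust prior, at -0.41 and -0.79. For time in culture ID3 turned to -0.046 with median scaling; with the slide as a term BMP4 turned to 0.088 and CDKN2B to -0.070; with Tet alone ID3 stood at -0.38 and CDKN2B at -0.61. Features past the adjusted threshold for the arms numbered 0, but 53 with normexp, 16 with the trended prior, 17 without a time term and 1 without the 30 h pair. For the slope they numbered 0, but 240 with median scaling, 1382 with normexp, 1796 with the trended prior and 2 among features detected on all 6 arrays. For time they numbered 2254, but 3566 with normexp, 3775 with the trended prior, and 0 without a detection filter or with the slide term. For the arms the slide term gives the same fit as leaving out the 45 h pair. The causes were not tested. The 6 arrays, with no replicate of a condition, limit all of these values.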
